A study of Mus musculus with 12 samples.

Results

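Cells switch between an epithelial and a mesenchymal state under a small set of opposed regulators, and 10 of their genes are described here: the mesenchymal switch factors Snai1, Snai2, Zeb1, Zeb2, Twist1 and Twist2, and the epithelial regulators Grhl2, Ovol1, Ovol2 and Esrp1. They were taken by name from the 55385 gene rows of the deposited tables, and all 10 were found. RNA sequencing had been done on 12 mRNA libraries of C57BL/6 mouse cells, with 4 libraries in each of 3 groups. The groups were the endometrial cancer cell line HPmECC (title code WT), the endometrial cancer cell line mECC (title code DM) and primary cultured normal endometrial cells (title code B6), called normal cells below. The series' design text speaks of overexpressed Myc in part of the cancer lines. Which of them, how either line was derived, and the age of the animals do not appear in the sources used here. Each cancer line is a single line sampled 4 times. Nothing in the labels ties the libraries of a group to separate cultures or animals, so the spread behind each p-value is that of the 4 libraries and may be purely technical.

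The SNAI, ZEB and TWIST proteins bind short DNA motifs called E-boxes, and they are best known for silencing E-cadherin (Cdh1) and other junction genes during epithelial-mesenchymal transition. GRHL2, OVOL1 and OVOL2 are transcription factors that hold cells epithelial, in part by repressing Zeb1, while ESRP1 is an RNA-binding protein that selects the epithelial forms of alternatively spliced transcripts. In the uterus these programs stand side by side, since the endometrium consists of an epithelium resting on a mesenchymal stroma.

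The E-box core that SNAI and ZEB factors bind, CACCTG, was searched on both strands (it reads CAGGTG on the opposite one, and hits do not overlap) in the 250 bases before each RefSeq transcription start. Of 32851 such windows from GRCm38.p6, 5657 (17.2%) held it on either strand. RefSeq windows matched 5 of the 10 genes (Snai1, Zeb2, Twist1, Twist2 and Ovol2), 8 windows in all because Zeb2 has several starts, and 1 of the 8 held the motif. It was that of Snai1, at chr2:167537945-167538194 on the plus strand, with the first base of the motif 126 bases before the start. The window of Epcam, an epithelial surface gene whose transcripts were nearly absent from HPmECC, lies at chr17:87635729-87635978 on the plus strand and held 2, starting 187 and 19 bases before the start. Snai1 is shown as the member with the motif among the 5 matched. Epcam, chosen after its values were seen, is shown as a target gene with it. Capitals mark the E-box, and a match is a description of the letters, not evidence of binding.
Snai1: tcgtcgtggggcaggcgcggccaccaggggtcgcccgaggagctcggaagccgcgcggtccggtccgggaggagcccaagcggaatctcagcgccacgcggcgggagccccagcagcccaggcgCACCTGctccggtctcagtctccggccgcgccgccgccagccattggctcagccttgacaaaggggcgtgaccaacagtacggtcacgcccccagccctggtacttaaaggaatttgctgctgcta
Epcam: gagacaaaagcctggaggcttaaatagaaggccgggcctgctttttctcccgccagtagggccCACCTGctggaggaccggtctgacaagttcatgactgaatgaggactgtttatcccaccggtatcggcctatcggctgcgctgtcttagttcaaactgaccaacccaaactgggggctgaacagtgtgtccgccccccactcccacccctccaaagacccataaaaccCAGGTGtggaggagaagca

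The libraries held 18402202 to 26873582 counts in HPmECC, 21755275 to 25821106 in mECC and 16332060 to 24202564 in normal cells. Myc itself stood at 257, 248, 258 and 302 CPM (counts scaled to library size with TMM factors) in the HPmECC libraries, at 62.1, 59.9, 57.2 and 58.6 CPM in the mECC libraries and at 117, 107, 113 and 107 CPM in the normal libraries. The 8 epithelial markers summed to 307 to 323 CPM in HPmECC, 1526 to 1563 CPM in mECC and 8739 to 9066 CPM in normal cells, and 8 fibroblast markers to 6325 to 6998, 5526 to 6266 and 1630 to 2053 CPM. Most of the fibroblast sum came from Col1a1 and Col3a1: by mean CPM 4 of the 8 fibroblast markers were lower in both lines than in normal cells (Col1a2, Dcn, Lum and Thy1), and 4 were higher. The 7 leukocyte markers summed to 17.3 to 20.1 CPM in HPmECC, with Ptprc, Tyrobp and Cd3e at 0 counts, to 10.9 to 13.9 CPM in mECC, with Tyrobp and Cd3e at 0, and to 245 to 261 CPM in normal cells. The 5 smooth muscle markers summed to 186 to 247, 51.2 to 53.6 and 2276 to 2743 CPM in the same order of groups, the 5 endothelial markers to 5.12 to 7.71, 3.26 to 4.15 and 109 to 122 CPM, and the 5 mesothelial markers to 8.99 to 11.1, 36.6 to 42.1 and 444 to 486 CPM. Their part in the differences from normal cells was not tested. In such bulk RNA, fewer cells of a type and less RNA per cell cannot be told apart.

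Both cancer lines carried far more transcript of every mesenchymal switch factor than normal cells did, except that Snai1 was only 1.36-fold higher in mECC. Between each other the lines differed in which SNAI gene led, Snai1 in HPmECC and Snai2 in mECC, and in how much was left of the epithelial regulators. Normal cells expressed all 4 epithelial regulators, mECC kept Esrp1, Grhl2 and a little Ovol2 at reduced levels, and HPmECC had close to none of them. In HPmECC against mECC, all 10 genes passed the test, 4 as higher and 6 as lower (edgeR quasi-likelihood test, adjusted p at or under 0.0155). Ovol1 and Ovol2 owe their place among the 6 to a filter that counts the normal libraries, and Ovol1 reached its level in neither line. With the lines alone in the fit neither gene was tested, and 4 genes were higher and 4 lower. Of the 15283 genes tested, 68.3% were called in that comparison, 33.8% higher and 34.5% lower. The libraries of the lines did not overlap in CPM for 8 of the 10 genes, 4 higher and 4 lower, as for 31.2% and 31.9% of all genes. A called difference of at least 2-fold was seen for 1 gene upward and 5 downward, against 6.73% and 9.4% of all genes. In mECC against normal cells all 6 switch factors were higher and all 4 epithelial regulators lower (adjusted p at or under 7.97e-07 by edgeR), where 86.3% of all genes were called, 42.1% higher and 44.2% lower (6436 and 6748 genes; 7866 and 5453 with library totals in place of TMM). None of the 10 overlapped, as for 40% of all genes upward and 42.3% downward, and 5 were at least 2-fold higher and 4 lower, against 18.4% and 22.8% of all genes. HPmECC against normal cells gave the same counts of higher and lower genes (adjusted p at or under 3.00e-12 by edgeR), where 86.4% of all genes were called, 43% higher and 43.3% lower. Again none overlapped (40.5% and 41.2% of all genes), and 6 were at least 2-fold higher and 4 lower (18.5% and 23%). Both comparisons with normal cells use the same normal libraries. In what follows levels are TPM, which are per transcript length, while fold differences and tests come from counts.

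**Figure D1:**
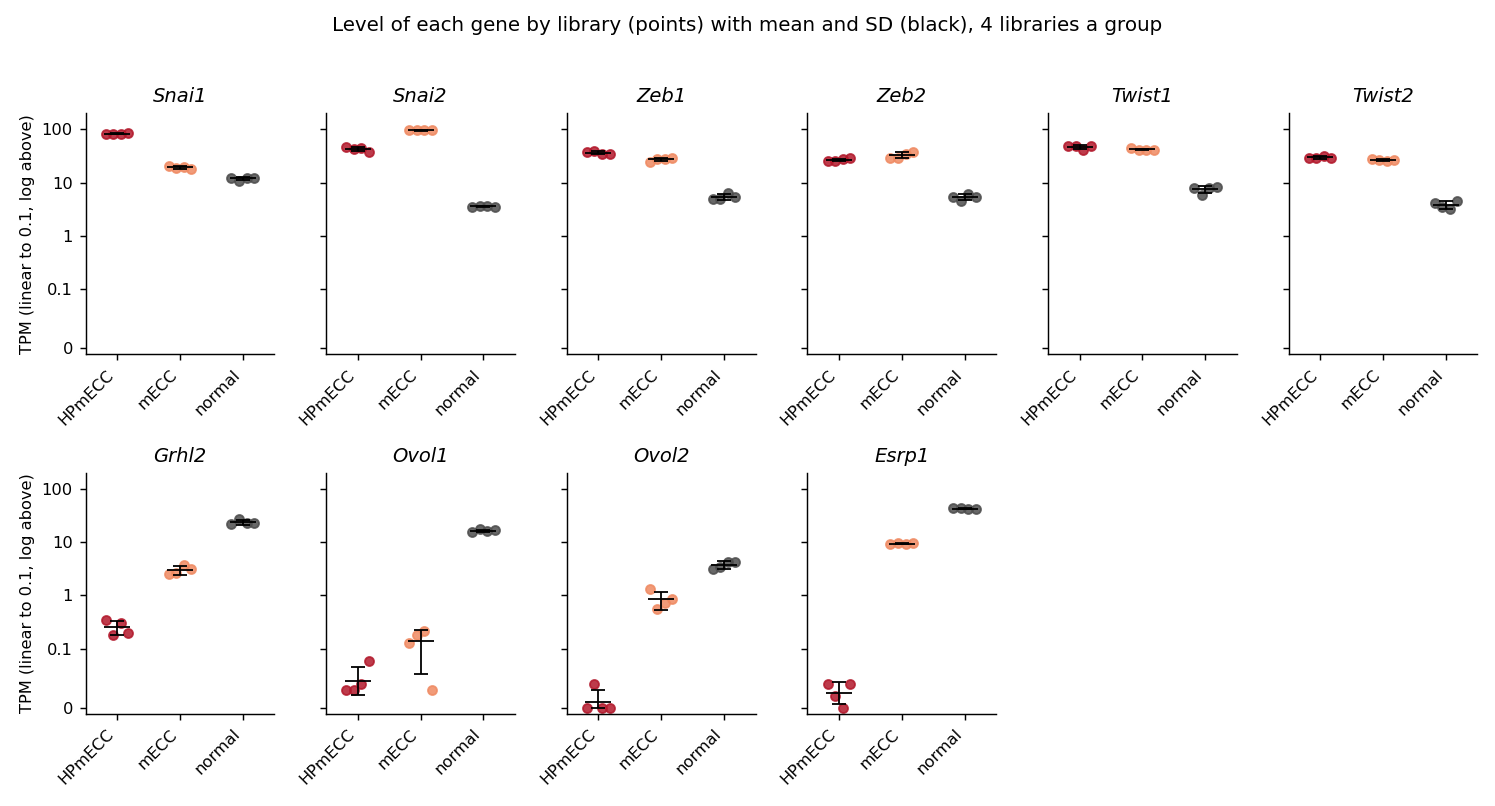
Level of each of the 10 genes in TPM (a relative abundance per transcript length) in each library, for HPmECC, mECC and normal cells. The axis is linear to 0.1 and logarithmic above; points are libraries, and black marks give the mean and SD of 4 libraries, with the lower bar ending at 0 where the SD exceeds the mean. The switch factors of the top row are lowest in normal cells, and the epithelial regulators of the bottom row are highest there.

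Snai1 (ENSMUSG00000042821, chromosome 2 at 167538195 to 167542814 of GRCm38, plus strand), the zinc finger repressor that acts early on Cdh1, was the leading factor in HPmECC. Its level was 81.5, 81.0, 83.3 and 85.6 TPM in the HPmECC libraries, 20.4, 19.0, 19.6 and 18.1 TPM in the mECC libraries, and 12.4, 10.9, 12.4 and 12.1 TPM in the normal libraries. All HPmECC libraries lay far above the other 8, and the mECC libraries lay just above the normal ones with no overlap. From the counts Snai1 in HPmECC exceeded its mECC level 4.51-fold (a log2 difference of 2.17 with SE 0.04; adjusted p by edgeR = 7.13e-18) and 6.13-fold higher than in normal cells (2.62 with SE 0.05; adjusted p by edgeR = 1.39e-19). In mECC the rise over normal cells was small (a log2 difference of 0.44 with SE 0.06; adjusted p by edgeR = 7.97e-07). With library totals in place of TMM that last value was 0.68, a move about equal to the shift of 0.24 in the median of all genes.

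Snai2 (ENSMUSG00000022676, chromosome 16 at 14705852 to 14709385, plus strand), the close relative also called Slug, went the other way between the lines. It stood at 46.5, 43.2, 45.2 and 36.8 TPM in HPmECC, at 95.67, 95.04, 95.08 and 98.2 TPM in mECC and at 3.51, 3.65, 3.64 and 3.5 TPM in normal cells. The groups did not overlap, and mECC was highest. The count of Snai2 was 2.14-fold lower in HPmECC than in mECC (a log2 difference of -1.10 with SE 0.05; adjusted p by edgeR = 6.90e-13), yet still 10.6-fold above normal cells (3.40 with SE 0.08; adjusted p by edgeR = 4.80e-18). In mECC it was 22.6-fold above normal cells (a log2 difference of 4.50 with SE 0.07; adjusted p by edgeR = 2.45e-20), which was the largest rise of any of the 6 factors in any of the 3 comparisons.

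As a ratio of TPM within each library, Snai1 over Snai2 was 1.75 to 2.33 in HPmECC, 0.184 to 0.213 in mECC and 3.00 to 3.53 in normal cells. The ratio thus did not overlap between any of the groups, and mECC was the group in which Snai2 exceeded Snai1. The ratio is a description chosen with the values known, and no test was made of it.

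Zeb1 (ENSMUSG00000024238, chromosome 18 at 5591860 to 5775467, plus strand), a zinc finger and homeodomain repressor that is held down by miR-200 in epithelial cells, was high in both lines and somewhat higher in HPmECC. Its libraries held 37.8, 39.2, 35.0 and 34.5 TPM in HPmECC, 24.5, 27.4, 28.2 and 28.5 TPM in mECC, and 4.90, 4.96, 6.29 and 5.31 TPM in normal cells, without overlap. Zeb1 exceeded its mECC level 1.45-fold in HPmECC (a log2 difference of 0.54 with SE 0.04; adjusted p by edgeR = 3.92e-10), was 4.12-fold higher in mECC than in normal cells (2.04 with SE 0.05; adjusted p by edgeR = 5.00e-18) and was 5.99-fold higher in HPmECC than in normal cells (2.58 with SE 0.05; adjusted p by edgeR = 9.57e-20).

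Zeb2 (ENSMUSG00000026872, chromosome 2 at 44983632 to 45117395, minus strand), the second ZEB gene, also known from macrophages, leaned the opposite way between the lines by a small amount. The values were 25.7, 25.7, 27.5 and 28.5 TPM in HPmECC, 29.1, 29.5, 34.5 and 38.0 TPM in mECC and 5.27, 4.44, 6.09 and 5.41 TPM in normal cells. In TPM the lines did not overlap, whereas in CPM they did, with 69.2 to 79.4 CPM in HPmECC and 74.8 to 87.5 CPM in mECC. The difference was 1.12-fold (a log2 difference of -0.16 with SE 0.06; adjusted p by edgeR = 0.0155). The call was lost without HPmECC replicate 1 (-0.14, edgeR adjusted p = 0.0566), without HPmECC replicate 2 (-0.13, edgeR adjusted p = 0.0639) and without mECC replicate 4 (-0.14, edgeR adjusted p = 0.0569). Against normal cells Zeb2 was 4.66-fold higher in HPmECC (a log2 difference of 2.22 with SE 0.07; adjusted p by edgeR = 5.30e-16) and 5.22-fold higher in mECC (2.38 with SE 0.07; adjusted p by edgeR = 1.54e-16). The summed leukocyte markers were higher in normal cells, and the part of leukocytes in the Zeb2 values was not tested.

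Twist1 (ENSMUSG00000035799, chromosome 12 at 33957671 to 33959829, plus strand) and Twist2 (ENSMUSG00000007805, chromosome 1 at 91801461 to 91848028, plus strand) encode bHLH factors of embryonic mesoderm and connective tissue, and they differed little between the lines. Twist1 stood at 48.4, 48.7, 41.8 and 48.1 TPM in HPmECC, 43.8, 41.3, 41.3 and 40.9 TPM in mECC, and 7.85, 5.80, 8.01 and 8.15 TPM in normal cells. Twist2 stood at 28.4, 29.0, 32.1 and 29.2 TPM in HPmECC, 27.8, 26.5, 25.4 and 26.7 TPM in mECC and 4.16, 3.46, 3.21 and 4.59 TPM in normal cells. HPmECC replicate 3 was the lowest of its group in Twist1 and the highest in Twist2, and in TPM it put the Twist1 range of HPmECC across that of mECC. Between the lines Twist1 was 1.18-fold higher in HPmECC (log2 fold change 0.23, 95% confidence interval 0.11 to 0.36, edgeR adjusted p = 0.00218) and Twist2 1.17-fold higher (0.23, 95% confidence interval 0.09 to 0.36, edgeR adjusted p = 0.00431). Neither call held with limma on log2(TPM + 1), at 0.15 for each gene (limma adjusted p = 0.143 for Twist1 and 0.13 for Twist2). Over normal cells, Twist1 was 5.56-fold higher in HPmECC and 4.73-fold higher in mECC, and Twist2 6.77-fold and 5.79-fold higher (edgeR adjusted p at or under 3.51e-15 for the 4 values).

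**Figure D2:**
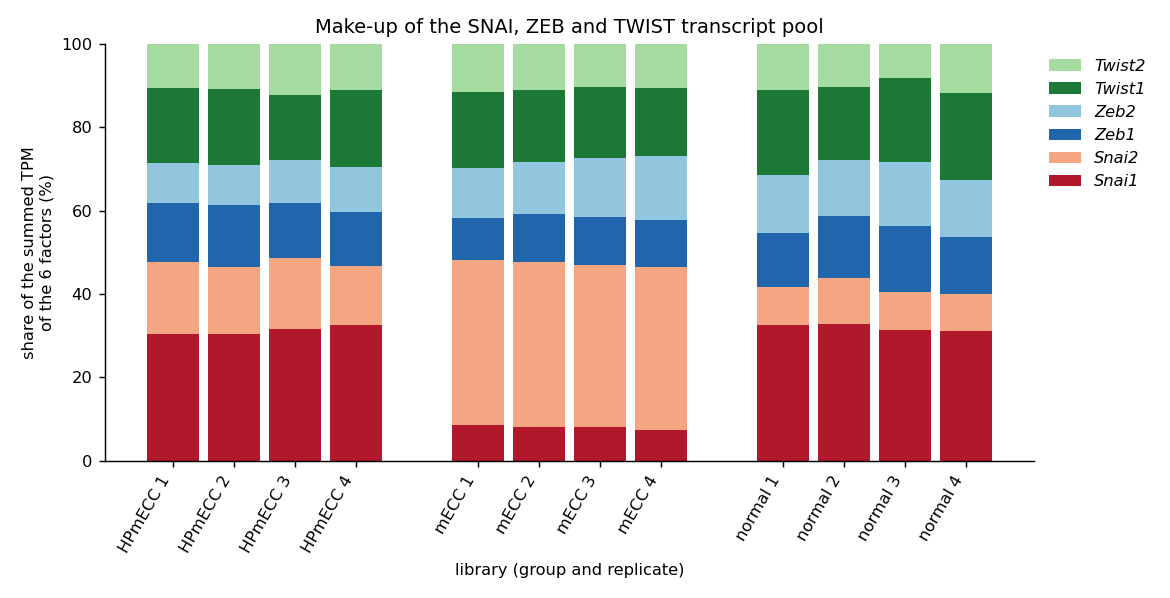
Share of each switch factor in the summed TPM of the 6, one bar per library, with HPmECC, mECC and normal libraries from left to right. Snai1 makes up 30.4% to 32.6% of the pool in HPmECC, 7.23% to 8.46% in mECC and 31.0% to 32.9% in normal cells, and Snai2 makes up 39.0% to 39.8% in mECC.

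Summed over the 6 switch factors, the pool held 266 ± 2.46 TPM in HPmECC, 244 ± 5.04 TPM in mECC and 37.5 ± 2.93 TPM in normal cells (SD, n = 4 each). The pool spanned 263 to 268 TPM in HPmECC libraries and 239 to 251 TPM in mECC libraries, without overlap, and its make-up differed more than its size. The plot of shares by library shows Snai2 at 14% to 17.3% in HPmECC, 39.0% to 39.8% in mECC and 8.95% to 10.98% in normal cells. Zeb1 and Zeb2 together with the TWIST genes kept more even shares: Twist1 made up 17.6% ± 1.23 in HPmECC, 17.2% ± 0.76 in mECC and 19.8% ± 1.58 in normal cells. Zeb1 over Zeb2 was 1.21 to 1.52 in HPmECC, 0.751 to 0.928 in mECC and 0.93 to 1.12 in normal cells. The sum of the 4 epithelial regulators was 0.335 ± 0.058 TPM in HPmECC, 13.4 ± 0.452 TPM in mECC and 86.9 ± 3.95 TPM in normal cells.

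Grhl2 (ENSMUSG00000022286, chromosome 15 at 37233036 to 37363569, plus strand), the grainyhead factor that opens the enhancers of epithelial genes, was lowest in HPmECC and intermediate in mECC. Its level was 0.34, 0.18, 0.30 and 0.20 TPM in HPmECC, from 15 counts over the 4 libraries, 2.5, 2.66, 3.75 and 3.08 TPM in mECC and 22.2, 27.6, 22.6 and 23.3 TPM in normal cells. The groups did not overlap. Grhl2 was 46.7-fold lower in HPmECC than in mECC (a log2 difference of -5.54 with SE 0.20; adjusted p by edgeR = 2.28e-14), 8.91-fold lower in mECC than in normal cells (-3.15 with SE 0.07; adjusted p by edgeR = 1.95e-18) and 416-fold lower in HPmECC than in normal cells (-8.70 with SE 0.13; adjusted p by edgeR = 7.42e-21). The mean TPM of Grhl2 differed by less than its counts: it was 11.8-fold lower in HPmECC than in mECC and 93.8-fold lower than in normal cells, so the count folds exceed the TPM ratios by 3.97 and 4.43 times. The cause of that gap was not tested, and the size of the loss in HPmECC therefore depends on the unit. For Snai1, Snai2, Zeb1, Zeb2, Twist1, Twist2, Ovol1 and Esrp1, folds from counts and from mean TPM lay within 1.28 times of each other in all 3 comparisons. Ovol2 also depended on the unit. Between the lines it was 36.7-fold lower in HPmECC by the fitted counts and 86.5-fold lower by mean TPM, 2.36 times apart. Against normal cells its folds lay 1.34 times apart in mECC and 1.76 times apart in HPmECC.

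Esrp1 (ENSMUSG00000040728, chromosome 4 at 11331933 to 11386783, minus strand) had the largest fitted difference of the 10 between HPmECC and each of the other groups. It stood at 0.04, 0.02, 0 and 0.04 TPM in HPmECC, 9.07, 9.79, 9.34 and 9.55 TPM in mECC and 43.4, 44.4, 42.4 and 41.1 TPM in normal cells. In counts this was 4 over all HPmECC libraries against 1786 in mECC, a ratio of 427 with an exact 95% counting interval of 167 to 1570, for counting error only. The fitted log2 fold change was -8.56 (SE 0.16, edgeR adjusted p = 1.53e-18). That SE is smaller than the counting interval implies. mECC itself was 5.51-fold below normal cells (a log2 difference of -2.46 with SE 0.04; adjusted p by edgeR = 6.27e-20), and HPmECC lay below normal cells by a count ratio of 2354 (counting interval 919 to 8642; edgeR adjusted p = 1.64e-23). The libraries of the 3 groups were well separated, and within mECC the coefficient of variation of Esrp1 was 2.18% in CPM.

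Ovol1 (ENSMUSG00000024922, chromosome 19 at 5549136 to 5560646, minus strand) and Ovol2 (ENSMUSG00000037279, chromosome 2 at 144305175 to 144332146, minus strand) encode zinc finger repressors, of which OVOL2 is known to act on Zeb1, and mECC retained one more than the other. Ovol1 stood at 0.03, 0.03, 0.04 and 0.08 TPM in HPmECC, 0.13, 0.18, 0.22 and 0.03 TPM in mECC and 15.3, 17.4, 16.3 and 16.7 TPM in normal cells. Normal libraries lay far above all others. mECC was 130-fold below normal cells (a log2 difference of -7.02 with SE 0.16; adjusted p by edgeR = 2.99e-18), while HPmECC was 466-fold below them (-8.86 with SE 0.20; adjusted p by edgeR = 2.06e-18). As count ratios, mECC lay below normal cells by 133 (counting interval 89.15 to 208) and HPmECC by 509 (counting interval 234 to 1389). Both intervals are wider than the SEs imply. Only the normal libraries of Ovol1 reached the filter level of 0.446 CPM, so the gene was tested because of the group in which it was high. Grhl2 and Esrp1 reached that level in all mECC and normal libraries, Ovol2 in 3 mECC and all normal libraries, and none of them did in HPmECC. The lines overlapped, with 6 counts in HPmECC and 24 in mECC (a log2 difference of -1.85 with SE 0.57; adjusted p by edgeR = 0.00773), and that call was lost with limma on log2(TPM + 1) (-0.12, limma adjusted p = 0.144).

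Ovol2, the lowest of the epithelial regulators in normal cells, kept some transcript in mECC. It stood at 0, 0.04, 0 and 0 TPM in HPmECC, 1.31, 0.56, 0.73 and 0.86 TPM in mECC and 3.10, 3.46, 4.32 and 4.20 TPM in normal cells. The groups did not overlap. In counts, HPmECC held 1 and mECC 58, a ratio of 55.5 with a counting interval of 9.58 to 2230 (edgeR adjusted p = 3.12e-07). With 58 counts in mECC against 250 in normal cells, mECC was 5.85-fold lower (a log2 difference of -2.55 with SE 0.23; adjusted p by edgeR = 4.17e-09), and HPmECC was lower by a count ratio of 330 (counting interval 58.7 to 13090; edgeR adjusted p = 3.00e-12).

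**Figure D3:**
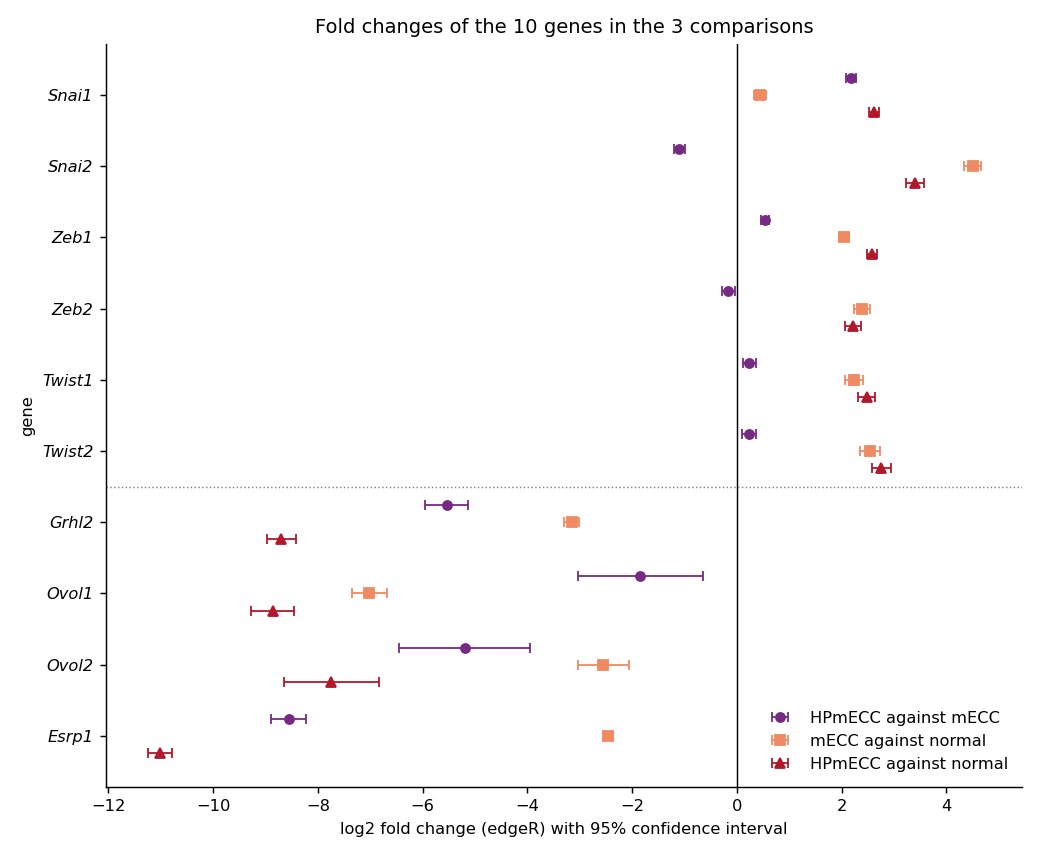
Log2 fold change from edgeR with its 95% confidence interval for the 10 genes. The comparisons are HPmECC against mECC, mECC against normal cells and HPmECC against normal cells. Switch factors lie above the dotted line and epithelial regulators below it. For the epithelial regulators in HPmECC, where counts are few, these intervals are narrower than the counting intervals. Between the lines Snai1 (2.17) and Snai2 (-1.10) point in opposite directions and the TWIST genes lie near 0 (0.23 each), while Ovol1 has its larger difference between mECC and normal cells and Esrp1 between the lines; fitted values of genes with few counts, such as Ovol2 with 1 count in HPmECC, depend on the prior count and are no bounds.

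Set side by side as log2 fold changes, the epithelial regulators divided by where the larger difference lay. For Ovol1 it lay between mECC and normal cells (-7.02), against -1.85 between HPmECC and mECC. For Esrp1 it lay between HPmECC and mECC (-8.56), against -2.46 between mECC and normal cells. Grhl2 was nearer to even, at -5.54 between HPmECC and mECC and -3.15 between mECC and normal cells. Ovol2 had count ratios of 55.5 (counting interval 9.58 to 2230) between the lines and 5.95 (counting interval 4.45 to 8.05) between mECC and normal cells, the first of which rests on 1 count in HPmECC. Ovol1 held 24 counts in mECC, with no library at the filter level, which left little room for a further drop between the lines. Because mECC enters both comparisons, the order of the fold changes and count ratios is given as a description.

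Ordered by mean TPM, the genes ran differently in each group. In HPmECC Snai1 came first at 82.8 TPM, and Twist1 (46.7), Snai2 (42.9) and Zeb1 (36.6) followed, with each neighbouring pair of these last 3 overlapping between libraries. Twist2 (29.7) and Zeb2 (26.9) overlapped as well, and the epithelial regulators came last, none above 0.255. In mECC Snai2 led at 96 TPM, ahead of Twist1 (41.8) and Zeb2 (32.8), each in all 4 libraries, while Zeb1 (27.2) and Twist2 (26.6) overlapped. Snai1 (19.3) was the lowest of the switch factors there, and still above Esrp1 (9.44). In normal cells Esrp1 (42.8), Grhl2 (23.9) and Ovol1 (16.4) stood at the top without overlap, Snai1 (11.97) was the highest switch factor, and every further neighbour, from Twist1 (7.45) down to Snai2 (3.58), overlapped with the next.

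Genes whose pattern was most like that of a member were found by the root mean square difference of centred log2(CPM + 0.5) values over the 12 libraries. Zeb1 had the closest match, Mmab, at 0.063, ahead of Gpc1 at 0.075. Snai1 was nearest to Dact3 (0.139) and Uchl1 (0.168). For Snai2 these were Pax3 (0.132) and Dmrta2 (0.141), and Pax3 had 5.47 CPM in HPmECC, 10.9 CPM in mECC and 0 counts in normal cells. Zeb2 was nearest to Sh3bp1 (0.092) and Copz2 (0.103), Twist1 to Lrrk2 (0.085) and Fads1 (0.099), and Twist2 to Chst2 (0.096) and Shf (0.11). On the epithelial side Grhl2 was nearest to Grb7 (0.126) and Atp2c2 (0.15), and Ovol1 to Vstm5 (0.194) and Ckmt1 (0.212). Ovol2 was nearest to Tcaf2 (0.144) and Ptprj (0.155), and Esrp1 to the tight junction gene Cldn1 (0.202) and to Plac8 (0.211). As the 12 libraries fall into 3 groups, the measure reflects mainly the 3 group levels.

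Relatives of these genes were tested only in part. Of 7 related genes, 3 passed the filter (Snai3, Grhl1 and Esrp2), and all 3 were lower in HPmECC than in mECC, where 34.5% of all genes were. Their median log2 fold change was -2.65 beside -0.002 for all genes tested. Snai3 and Grhl1 held 9 and 26 counts in HPmECC. Their means there, 0.0896 and 0.282 CPM, lay under the filter level of 0.446 CPM. Esrp2, the paralog that shares the splicing role of Esrp1, stood at 1.93 ± 0.48 CPM in HPmECC, with 11.8 ± 0.42 in mECC and 88.5 ± 3.61 in the normal cells (SD, n = 4 each). It was 6.26-fold lower in HPmECC than in mECC (a log2 difference of -2.65 with SE 0.10; adjusted p by edgeR = 5.63e-14). Snai3, Grhl1 and Esrp2 were also all lower in mECC than in normal cells, as were 44.2% of all genes.

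Epithelial genes known to be silenced by SNAI and ZEB factors were lower in 17 of 18 cases in HPmECC against mECC, and 1 was higher (median log2 fold change -3.96). Among all genes tested, 34.5% were lower and 33.8% higher in that comparison. All 18 epithelial genes were lower in mECC than in normal cells (median -3.33) and in HPmECC than in normal cells (median -7.76). The shares of all genes that were lower there were 44.2% in mECC and 43.3% in HPmECC. Cdh1 stood at 0.94 ± 0.25 CPM in HPmECC, with 105 ± 2.51 in mECC and 838 ± 23.9 in the normal cells, and Epcam at 0.34 ± 0.16, 92.6 ± 2.93 and 461 ± 20.99 CPM. Epcam was 254-fold lower in HPmECC than in mECC (edgeR adjusted p = 6.82e-21). Ap1m2, a sorting adaptor of epithelial cells, had 1 count over the HPmECC libraries and 612 over the mECC libraries. The exception was Pkp2, a desmosomal plakophilin that is also present in some mesenchymal cells, 2.14-fold higher in HPmECC at 43.3 ± 1.61 against 20.2 ± 1.15 CPM (edgeR adjusted p = 1.34e-13). mECC and normal cells thus both held transcripts of Cdh1 and Epcam together with those of all 6 switch factors. Bulk RNA cannot show whether these transcripts lay in the same cells.

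Of 10 transcription factors that work beside GRHL2 and the OVOL factors in epithelia, 8 were lower in HPmECC than in mECC, 0 were higher and 2 were not called (median log2 fold change -1.31). The shares among all genes tested were 34.5% lower and 33.8% higher. Tfcp2l1, a grainyhead-related factor, stood at 1.59 ± 0.32 CPM in HPmECC, with 30.9 ± 1.89 in mECC and 603 ± 29.7 in the normal cells. Ehf, an ETS factor of epithelia, stood at 1.65 ± 0.32, 25.3 ± 0.54 and 37.4 ± 3.61 CPM in the same groups. They were 19.4-fold and 15.5-fold lower in HPmECC than in mECC (edgeR adjusted p = 1.47e-17 for Tfcp2l1 and 3.32e-16 for Ehf).

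**Figure D4:**
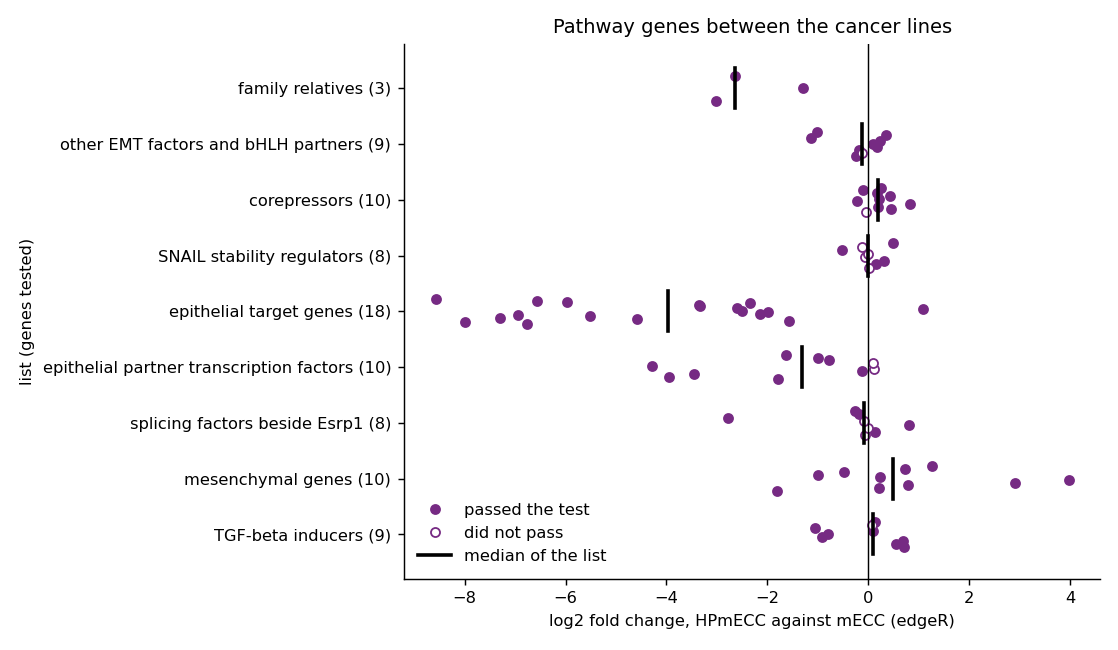
Log2 fold change between HPmECC and mECC of the tested genes in 9 lists of related genes, with filled points for genes that passed the edgeR test, open points for those that did not, and a black bar at the median of each list. The epithelial lists lie to the left, with a median of -3.96 for target genes, while corepressors (0.20), regulators of SNAIL stability (0.003) and splicing factors (-0.08) have medians close to 0.

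The plot of list members shows smaller medians for the other lists, whose counts stand beside 33.8% of all genes higher and 34.5% lower in HPmECC against mECC. Among 9 tested EMT factors and bHLH partners, 4 were higher and 4 lower in HPmECC (median log2 fold change -0.13). Prrx1, a homeobox factor of mesenchyme, was 1.19-fold lower in HPmECC than in mECC (edgeR adjusted p = 1.06e-05) but 8.66-fold higher than in normal cells, at 164 ± 2.02 CPM in HPmECC, with 196 ± 9.80 in mECC and 19.1 ± 1.69 in the normal cells. Id2, which encodes an inhibitor of bHLH factors, was 2.21-fold lower in HPmECC (42.4 ± 1.71 against 93.4 ± 2.77 CPM in mECC, edgeR adjusted p = 7.70e-15), and Id3 was 1.28-fold higher (edgeR adjusted p = 1.82e-07). Id1 was 1.17-fold higher as well (edgeR adjusted p = 0.00786).

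Of the 10 corepressors that SNAI and ZEB proteins recruit, 7 were higher in HPmECC and 2 lower (median 0.20), beside 33.8% and 34.5% of all genes. Rcor1, a partner of the demethylase LSD1, was 1.77-fold higher (86.6 ± 3.71 against 48.8 ± 0.39 CPM, edgeR adjusted p = 1.33e-13). Ctbp2 was 1.36-fold higher (edgeR adjusted p = 1.36e-09), while Hdac1 and Limd1 were 1.17-fold and 1.07-fold lower (edgeR adjusted p = 3.33e-06 and 0.0119). Of 8 genes that regulate the stability of SNAIL protein, 3 were higher, 1 was lower and 4 were not called, so that the share higher was near that of all genes. Pak1, a kinase that acts on SNAIL, was 1.40-fold higher (edgeR adjusted p = 3.54e-09) and Fbxl14, a ubiquitin ligase subunit, 1.25-fold higher (edgeR adjusted p = 8.87e-07). Usp27x, a deubiquitinase, was 1.43-fold lower (edgeR adjusted p = 2.38e-04). RNA levels do not report the amount of SNAIL protein.

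Of 8 other splicing factors 2 were higher and 3 lower in HPmECC, shares close to those of all genes (33.8% and 34.5%). Rbm47, which promotes epithelial splicing, was 6.88-fold lower than in mECC (1.75 ± 0.45 against 12.04 ± 1.29 CPM, edgeR adjusted p = 5.13e-13), and Mbnl1 was 1.75-fold higher (edgeR adjusted p = 3.17e-14). Qk was 1.10-fold higher (edgeR adjusted p = 5.81e-04), and Hnrnpm 1.19-fold lower (edgeR adjusted p = 5.43e-06). Exon usage was not analysed here, since the tables hold genes.

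Of 10 mesenchymal genes 7 were higher and 3 lower in HPmECC than in mECC (median log2 fold change 0.48), where 33.8% and 34.5% of all genes were. Cdh2, which encodes N-cadherin, was 3.52-fold lower in HPmECC than in mECC, at 17.1 ± 0.92 against 60.5 ± 1.87 CPM (edgeR adjusted p = 9.92e-17), and normal cells had 71.7 ± 2.66 CPM. Cdh11, a cadherin of fibroblasts, was 1.99-fold lower (edgeR adjusted p = 1.35e-08). The matrix proteases Mmp9 and Mmp2 were 15.7-fold and 7.54-fold higher in HPmECC than in mECC (edgeR adjusted p = 9.50e-13 for Mmp9 and 8.34e-19 for Mmp2), and Mmp9 stood at 5.18 ± 0.39 CPM in HPmECC, with 0.33 ± 0.10 in mECC and 114 ± 7.84 in the normal cells. In mECC against normal cells 4 of the 10 mesenchymal genes were higher and 6 lower, beside 42.1% and 44.2% of all genes. In HPmECC against normal cells 5 were higher and 5 lower, beside 43% and 43.3% of all genes.

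Of 9 genes of TGF-beta signaling, which induces these factors, 5 were higher and 3 lower in HPmECC than in mECC (median 0.10), beside 33.8% and 34.5% of all genes. The ligand genes Tgfb1 and Tgfb3 were 1.63-fold and 1.61-fold higher (edgeR adjusted p = 2.38e-12 and 7.45e-10). The receptor gene Tgfbr1 and the signal transducer Smad3 were 1.89-fold and 2.08-fold lower (edgeR adjusted p = 8.42e-13 and 2.91e-15). Smad3 stood at 60.5 ± 2.77 CPM in HPmECC, with 126 ± 1.80 in mECC and 182 ± 4.26 in the normal cells.

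Against normal cells, where 43% of all genes were higher and 43.3% lower in HPmECC, and 42.1% higher and 44.2% lower in mECC, the other lists gave the following counts. Of the EMT factors and bHLH partners, 6 were higher and 3 lower in HPmECC, and 6 higher and 2 lower in mECC. Of the corepressors, 5 were higher and 5 lower in each line, and of the regulators of SNAIL stability, 4 were higher and 4 lower in each line, shares near those of all genes. Of the splicing factors, 3 were higher and 4 lower in HPmECC, and 4 higher and 3 lower in mECC. Of the epithelial partner factors, 8 were lower and 2 higher in each line, the exceptions being Trp63 and Tfap2a. Of the TGF-beta genes, 3 were higher and 6 lower in each line.

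Overlapping genes limit the reading of some rows, as no source used here gives the strand setting of the counts. Exons of Twist2 share 1477 of 3174 bases with the antisense gene Gm29100, which had 256 counts in all, and 45.7% of the 50-base words of Twist2 transcripts occur in that gene. Zeb2 shares 653 of 19942 exon bases with Zeb2os on the opposite strand, which had 906 counts. Ovol1 shares 19.6% of its words with Gm31166 and AC126029.1, which had 120 and 12 counts in all. Ovol1 itself had 6 counts in HPmECC, 24 in mECC and 2314 in normal cells. Ovol2 shares 12.2% with 1700108N11Rik, which had 1 count. Grhl2, with 15 counts in HPmECC, shares 169 of 8613 exon bases with the antisense gene Gm16136, which had 340 counts in all. Apart from Twist2, Ovol1 and Ovol2, the other 7 genes share at most 2.26% of their words with other genes, and Snai1 and Twist1 share none.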

How the data were processed

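RNA libraries (TruSeq mRNA kit, RNA from RNeasy kits) were sequenced from 12 samples, according to the labels' protocols. Trim Galore, STAR 2.6.1a, RSEM 1.3.1 and genome build GRCm38 are named in the submitters' processing notes. No source used here gives the annotation release or the strand setting. Per gene, the authors deposited estimated counts from RSEM, which are whole numbers in the table. They also deposited TPM values, which are relative to transcript length and library. FPKM values were not used. Of 55385 gene rows, 55144 matched a symbol.

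The groups were compared in R 4.3.3 with edgeR 4.0.16 (quasi-likelihood test, all 12 libraries, 1 coefficient per group, TMM factors, filterByExpr at its minimum of 10 counts). This left 15283 genes, among them all 10 members. P-values were adjusted over these genes by the Benjamini-Hochberg method, with calls at 0.05. Standard errors come from the F statistic. The biological coefficient of variation was 4.27%. Levels are TPM or TMM-scaled CPM, and counting intervals are exact 95% intervals that cover counting error only. Coordinates are from GENCODE mouse release 21 on GRCm38, and promoter windows from RefSeq on GRCm38.p6. The fit was tested on simulated data, drawn with the spread that the same fit had estimated. The simulation therefore cannot check that spread, nor the large drops to few counts seen in HPmECC.

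The members and lists were chosen with earlier results of these data known. All members are named, with the 2 genes most like each one (mean of at least 1 CPM) and, from each list, up to 2 called genes in each direction between HPmECC and mECC with at least 1 CPM. Cdh1, Snai3, Grhl1, Trp63 and Tfap2a are named besides, after their values were seen. Alternatives were other factors, no filter, DESeq2 1.42.0, limma 3.58.1 on log2(TPM + 1) and log2(TPM + 0.1), fits of 2 groups, a replicate block and leaving out each library.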

Additional observations from a re-analysis of the deposited data

Results flagged for a closer look

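In 192 sets of 4 libraries, 16 had a library far from the other 3 (by Dixon's test of the gap over the range, which chance alone meets in about 1 in 20 sets). That rate is for independent sets of continuous values, while these sets share the same libraries. Ovol2 and Ap1m2 in HPmECC, with 1 count in 1 library and 0 in the others, meet the rule by construction. Among the 10 genes, Snai1 in normal replicate 2 stood at 10.8 CPM, with the other normal libraries at 12.2 to 12.3, Twist1 in normal replicate 2 at 5.77 against 7.85 to 8.22 CPM, and Grhl2 in normal replicate 2 at 73.2 against 63.3 to 64.2 CPM. In the same library Uchl1 stood at 34.2 against 41.1 to 42.5 CPM and Cldn1 at 225 against 213 to 215 CPM, and the fibroblast markers summed to 1630 against 2011 to 2053 CPM. The part of that difference in the values of the members was not tested. Without normal replicate 2, the log2 fold change of Snai1 in mECC against normal cells was 0.40 and all 10 calls remained in each comparison with normal cells.

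Twist1 in HPmECC replicate 3 stood at 36.8 against 42.7 to 43.0 CPM, and Twist1 over Twist2 there was 1.301 against 1.65 to 1.71. Ovol2 had its only count of HPmECC in replicate 2 (0.0357 CPM), and Ap1m2 its own in replicate 1 (0.0426 CPM). In HPmECC, Cdh2 stood at 18.5 CPM in replicate 4 against 16.5 to 16.8 CPM, and Limd1 at 88.4 CPM in replicate 2 against 80.2 to 81.1 CPM. In mECC replicate 2, Mmp9 stood at 0.182 against 0.362 to 0.385 CPM, Rcor1 at 48.3 against 49.0 to 49.1 CPM and Chst2 at 15.9 against 15.3 to 15.4 CPM. Shf stood at 22.7 CPM in mECC replicate 3 against 23.8 to 23.9 CPM, and Prrx1 at 21.6 CPM in normal replicate 1 against 17.9 to 18.5 CPM.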

How the results depend on the processing

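Of 478 values of the 10 genes under the alternatives, 470 kept direction and call, 8 kept direction and lost the call, and 0 reversed. The count of members higher in HPmECC than in mECC was 4 in edgeR and 2 with limma on log2(TPM + 1) and on log2(TPM + 0.1), where Twist1 and Twist2 dropped out; the cause was not tested. With only the lines in the fit, Ovol1 and Ovol2 did not pass the filter, which left 4 members lower in place of 6. Leaving out 1 library gave 4 members higher and 5 to 6 lower in that comparison, and 6 higher and 4 lower in both comparisons with normal cells. Same-numbered libraries did not deviate together (correlations of -0.051 to 0.08 over 12 pairs), so the numbers are not treated as pairs. With the replicate block, 4 members were higher and 6 lower in HPmECC against mECC, and no call of the 10 genes changed. Library totals shifted the median log2 fold change of all genes to 0.22 in mECC and 0.20 in HPmECC against normal cells, and the split of calls in mECC against normal cells to 7866 higher and 5453 lower, in place of 6436 and 6748; limma on log2(TPM + 1) gave 7567 and 5275. Depth limits Ovol1, Ovol2, Esrp1 and Grhl2 in HPmECC, where 1 to 15 counts were present.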

Other observations

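The rows of the hairpins Mir200a, Mir200b, Mir200c, Mir141 and Mir429, whose mature products repress the ZEB genes, held 0 counts in all 12 libraries (5 of 5 rows). These mRNA libraries do not measure mature microRNAs, so this says nothing of their level.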
